A study of Mus musculus with 15 samples.

Results

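The genes described here are 9 genes whose products are secreted into milk, namely the caseins Csn1s1, Csn1s2a, Csn2 and Csn3, the whey protein genes Wap and Lalba, and the secreted glycoprotein and defence protein genes Glycam1, Lcn2 and Ltf. They were picked by name from the 52526 genes with values in mammary tissue of female nu/nu nude mice, an athymic strain that carries Foxn1nu and lacks mature T cells. From 8 weeks of age, mice received the flame retardant congener BDE-47 (n = 7) in PEG300 with 1% DMSO, or that vehicle alone (n = 8), from pumps under the skin for 16 weeks. Normal tissue of the left 4th mammary gland was read with QuantSeq 3′ FWD, 1 library per mouse, and whether a xenograft lay in the region is not in the sample labels. Of the 9 genes, 6 were above 1 CPM (counts scaled to mapped reads) in at least 1 mouse, and 4 were above it in at least 7 of the 15 mice.

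Milk proteins are made by the luminal cells of mammary alveoli. In pregnancy and lactation prolactin binds its receptor, JAK2 phosphorylates STAT5, and STAT5 enters the nucleus and binds palindromic sites in milk gene promoters. Caseins carry calcium and phosphate in micelles, and kappa-casein (Csn3) coats their surface. Wap is the major whey protein of rodent milk, and alpha-lactalbumin (Lalba) is the partner of B4galt1 in making lactose. Glycam1 is a mucin-like protein of milk that is also made by high endothelial venules of lymph nodes. Lipocalin 2 (Lcn2) binds iron-loaded siderophores of bacteria, lactotransferrin (Ltf) binds iron itself, and both are also stored in granules of neutrophils.

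The promoters below show where the STAT5-type letters lie in genes of this group that were read and in 1 that was not. Promoter entries were found for 8 of the 9 genes (RefSeq, GRCm38.p6, the build named in the submitters' processing notes), and Csn3 had none. The letters TTCNNNGAA, the same on both strands, were searched in the 250 bases before the transcript start, and 7.02% of 32851 promoters hold them. They occur once each in Csn1s1, Csn2 and Glycam1, beginning 100, 93 and 145 bases before the start, and do not occur in this window of Csn1s2a, Wap, Lalba, Lcn2 or Ltf. The last 150 bases before the start are printed 5′ to 3′ with the match in capitals. Lcn2 is shown as an example of a gene without a match that was above 1 CPM in every mouse, and Ltf is another.
Csn1s1, chr5:87666058-87666207, forward strand: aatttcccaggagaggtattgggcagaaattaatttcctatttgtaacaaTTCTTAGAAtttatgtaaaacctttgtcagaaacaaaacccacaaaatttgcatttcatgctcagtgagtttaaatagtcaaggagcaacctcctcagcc
Csn2, chr5:87699426-87699575, reverse strand: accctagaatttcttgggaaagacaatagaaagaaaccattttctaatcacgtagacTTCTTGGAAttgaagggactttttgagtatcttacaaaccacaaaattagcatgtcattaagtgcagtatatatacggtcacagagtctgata
Glycam1, chr15:103565082-103565231, reverse strand: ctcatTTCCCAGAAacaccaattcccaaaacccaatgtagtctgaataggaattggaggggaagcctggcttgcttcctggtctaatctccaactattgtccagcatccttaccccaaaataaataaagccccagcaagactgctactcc
Lcn2, chr2:32387740-32387889, reverse strand: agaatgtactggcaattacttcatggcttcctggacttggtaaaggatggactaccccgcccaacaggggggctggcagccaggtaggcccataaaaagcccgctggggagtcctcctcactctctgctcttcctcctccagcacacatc

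Of the caseins only Csn3 was read in most mice, and the genes for the other major milk proteins were listed at 0 in most or all mice of both groups. The values are log2(CPM), in which every gene under 1 CPM is listed at 0. That floor stands for 10.06 to 19.58 reads, since the mice had between 10.06 and 19.58 M mapped reads. Csn1s2a, Csn2 and Wap were listed at 0 in all 15 mice. So was Csn1s2b, the casein gene beside Csn1s2a. Reads of these genes under that floor are not shown by the deposited values. The casein genes lie together on chromosome 5 of GRCm38, with Csn1s1 from 87666208 to 87682578, Csn2 from 87692619 to 87699429, Csn1s2a from 87774450 to 87788798 and Csn3 from 87925579 to 87932550. Sult1e1 and Cabs1, the protein-coding genes on either side of the cluster, were also listed at 0 in every mouse. So were Prr27 and BC037156, which lie between Csn1s2b and Csn3. Wap lies on chromosome 11 from 6635483 to 6638654. Its neighbour Tbrg4 was above the floor in 13 mice, and its neighbour Ramp3 in 2.

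**Figure D1:**
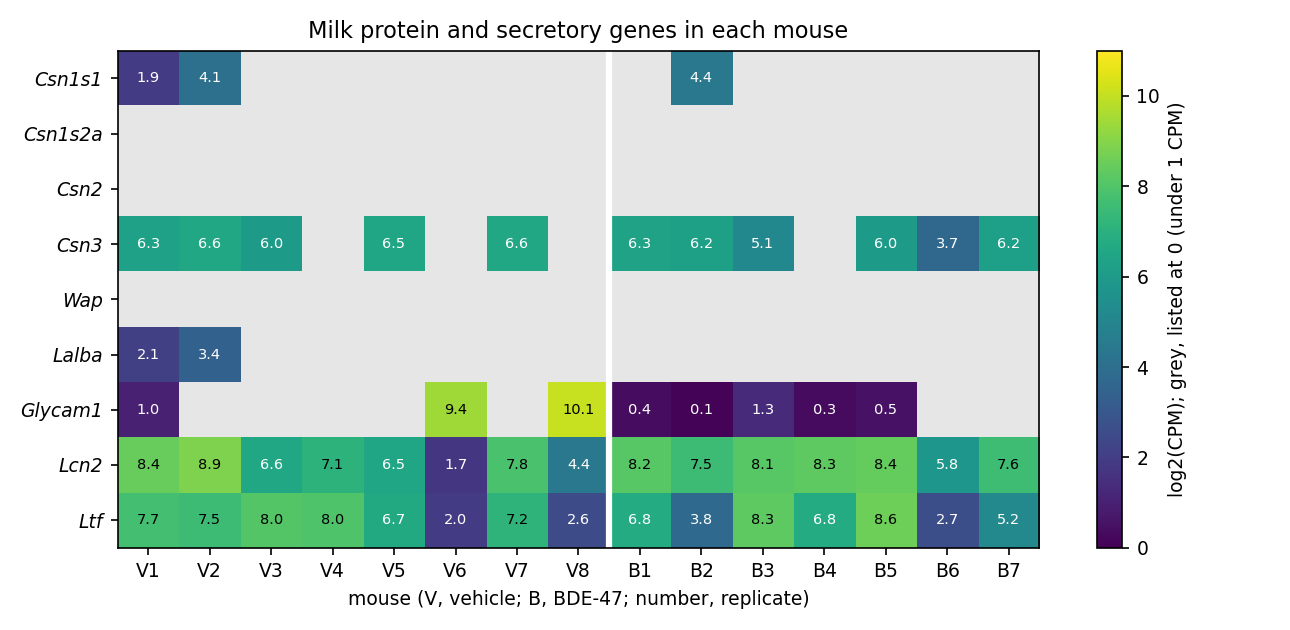
Level of each of the 9 genes in each mouse as log2(CPM), with genes in rows, mice in columns (V, vehicle; B, BDE-47; the number is the replicate) and grey for values listed at 0, which are under 1 CPM. Lcn2 and Ltf were above the floor in all 15 mice, Csn3 in 11, Glycam1 in 8, Csn1s1 in 3, Lalba in 2 and the other genes in none.

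The counts of member genes past each threshold were set beside those of all genes. Limma tested 9511 genes and called 0.0% of them at an adjusted p under 0.05, where the lowest was 0.982, and 4.66% of them (443) at an unadjusted p under 0.05. Neither threshold was passed by any of the 4 member genes tested (0 of 4). Means more than 2-fold higher with BDE-47 were found for 9.97% of the 16314 genes above the floor in at least 1 mouse and for 1 of the 6 milk genes above it, Lcn2. Means more than 2-fold lower were found for 10.5% of genes and for 1 of the 6, Glycam1. The median difference was -0.16 log2(CPM) over those 6 genes and -0.015 over all 16314 genes. The p-values set the difference of group means against the variation between these mice.

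Csn1s1, an alpha-casein gene 10.0 kb from Csn2, was above the floor in 3 mice. It reached 3.77 CPM (95% interval 2.86 to 4.87, exact binomial) in vehicle replicate 1 and 16.9 CPM (14.8 to 19.1) in vehicle replicate 2. In BDE-47 replicate 2 it reached 21.3 CPM (19.0 to 23.8). These levels came from 58, 250 and 314 reads. These intervals cover counting error only. Both groups thus held mice with and without Csn1s1. Its mean (± SD) was 0.749 ± 1.502 log2(CPM) over the 8 vehicle mice and 0.63 ± 1.67 over the 7 that received BDE-47, so that the groups differed by -0.12, less than the mice of either group differ among themselves (two-sided exact permutation test, p = 1.0). Lalba, on chromosome 15 from 98480400 to 98482934, was above the floor in vehicle replicates 1 and 2, with 4.29 CPM (3.32 to 5.46) and 10.7 CPM (9.13 to 12.5). It was listed at 0 in the other 6 vehicle mice and in all 7 BDE-47 mice (exact permutation test, p = 0.467). With so few mice above the floor, the exact test could not reach a p under 0.05 for Csn1s1 or Lalba, whichever group those mice were in. Both vehicle mice with Lalba also had Csn1s1, whereas BDE-47 replicate 2, with the highest Csn1s1, had Lalba at 0. The olfactory receptor genes on either side of Lalba, Olfr281 and Olfr279, were listed at 0 in every mouse.

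Csn3 was the casein with the highest level and was either well above the floor or listed at 0. In vehicle mice it was 6.30, 6.61, 5.99, 6.47 and 6.57 log2(CPM) in replicates 1, 2, 3, 5 and 7 and was listed at 0 in replicates 4, 6 and 8. In BDE-47 mice it was 6.33, 6.24, 5.12, 5.98, 3.70 and 6.20 in replicates 1, 2, 3, 5, 6 and 7 and was listed at 0 in replicate 4. In linear terms the 10 highest mice had between 34.8 and 97.8 CPM. The groups overlapped over their whole range. The mean (± SD) was 3.99 ± 3.31 over the 8 vehicle mice and 4.80 ± 2.31 over the 7 that received BDE-47. The difference of 0.81 (standard error 1.07, limma adjusted p = 0.993) did not exceed the spread between mice (p = 0.584 in the exact permutation test). Without vehicle replicates 6 and 8 it was -0.53, so the direction rested on those mice.

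Vehicle replicates 6 and 8 and BDE-47 replicate 6 stood apart from the other mice in the cell types they held. The 18 luminal epithelium genes, among them Krt8, Krt18 and Epcam, had a mean of 1.65 and 2.37 log2(CPM) in vehicle replicates 6 and 8 and 3.29 in BDE-47 replicate 6, against 4.84 to 7.07 in the other 12 mice. Their summed level was 198 to 3290 CPM in vehicle mice and 296 to 4325 CPM in BDE-47 mice. The 10 adipocyte genes, among them Adipoq and Plin1, summed to 726 and 1583 CPM in vehicle replicates 6 and 8 and to between 12940 and 43970 CPM in the other 13 mice. In vehicle replicates 6 and 8 all 10 B cell genes were above the floor, with sums of 1415 and 3042 CPM, against 1 or 2 of 10 genes and sums of 1.29 to 99.9 CPM in the other 13 mice. BDE-47 replicate 6 had 87490 CPM of the 6 skeletal muscle genes, against 40.9 to 163 CPM in the other 14. In tissue RNA, fewer cells of a type and less RNA per cell cannot be told apart.

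The zeros of Csn3 fell in mice with and without low luminal RNA. Csn3 was at 0 in vehicle replicates 6 and 8, with the lowest luminal levels, but also in vehicle replicate 4 and BDE-47 replicate 4, whose luminal means were 6.51 and 5.57. The floor stood for 13.98 and 19.375 reads in those mice, and the other mice with luminal means of 4.84 or more had 485 to 1449 reads of Csn3. Among the 477 other genes whose median lay within 0.25 log2(CPM) of that of Csn3, 437 were above the floor in all 15 mice, 40 were listed at 0 in at least 1 mouse, and 0 were listed at 0 in 4 or more mice. These genes were chosen for a like median, and no test was made of how Csn3 compares with them. The 3 genes whose pattern over the 15 mice was most like that of Csn3 were Pex13 (Pearson's r = 0.935), Tep1 (0.916) and Fundc1 (0.906). They are given as a description, from 9511 genes searched.

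Glycam1 was high in 2 vehicle mice and at or near the floor in the other 13 mice. It was 9.44 log2(CPM) in vehicle replicate 6 (696 CPM from 10808 reads) and 10.06 in vehicle replicate 8 (1069 CPM from 12791 reads), where it was the gene of rank 53 and 34. In the other 6 vehicle mice it was 1.01 in replicate 1 and listed at 0 in 5. In BDE-47 mice it was 0.37, 0.12, 1.33, 0.31 and 0.55 in replicates 1 to 5 and listed at 0 in replicates 6 and 7, at most 2.51 CPM. The lower of the 2 high mice exceeded the highest other mouse 277-fold. The mean (± SD) was 2.56 ± 4.45 over the 8 vehicle mice and 0.38 ± 0.46 over the 7 that received BDE-47. The difference of -2.18 (standard error 1.22, limma adjusted p = 0.982) did not exceed the spread between mice (p = 0.409 in the exact permutation test), and without vehicle replicates 6 and 8 it was 0.21.

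The mice with high Glycam1 had high B cell genes and low luminal genes, and some genes of high endothelial venules and lymph node stroma were high in them. Fut7, a fucosyltransferase of high endothelial venules, was 5.79 and 5.05 log2(CPM) in vehicle replicates 6 and 8 and listed at 0 in the other 13 mice. Chst4, the sulfotransferase of these venules, was 3.94 in vehicle replicate 6 and listed at 0 in the others. The chemokine gene Cxcl13 was 6.91 and 7.76 in replicates 6 and 8, 4.31 in vehicle replicate 3 and at most 0.52 elsewhere. Of the 12 genes for high endothelial venules and lymph node stroma, 9 and 8 were above the floor in these mice, with sums of 475 and 881 CPM, and in the other 13 mice 1 to 7 genes summed to 1.15 to 147 CPM. Ltb was 6.53 and 7.495 log2(CPM) in these mice and at most 4.77 elsewhere, and Gcnt1 was 5.79 and 6.81 against at most 4.57. Other genes of this list followed Glycam1 in part or not at all. Ackr1, a chemokine receptor gene of venules, was 5.26 log2(CPM) in vehicle replicate 6 and 6.03 in vehicle replicate 2 but was listed at 0 in vehicle replicate 8. Madcam1, an adhesion gene of these venules, was listed at 0 in replicate 6, 0.59 in replicate 8 and highest, at 1.55, in vehicle replicate 1. Ccl19, like Chst4, was above the floor in replicate 6 alone, but only at 0.43, and Ccl21a was listed at 0 in every mouse. Il7 was 5.00 in replicate 8 and listed at 0 in replicate 6. The genes named from this list were chosen after their values were seen. Among the genes most like Glycam1 over the 15 mice were Marco (Pearson's r = 0.978) and Ighg2b (0.913). The 2 mice with high Glycam1 set these correlations.

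The low Glycam1 values of the other mice were at most 0.285% of the mean of vehicle replicates 6 and 8. For comparison, the skeletal muscle genes that were high in BDE-47 replicate 6 reached 0.115% to 0.278% of its level in the highest of the other 14 mice. The source of the low Glycam1 reads was not tested. Glycam1 lies on chromosome 15 from 103562759 to 103565081. Its neighbour Ppp1r1a was above the floor in 13 mice, and Mucl2 on the other side was listed at 0 in all.

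**Figure D2:**
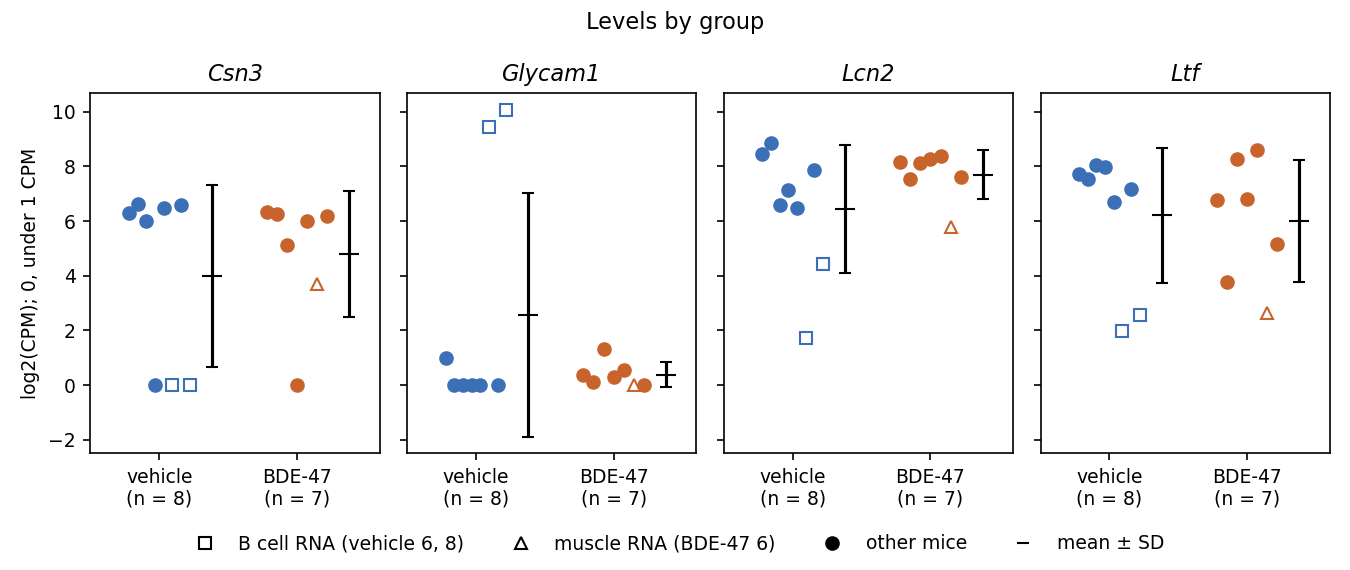
Levels of Csn3, Glycam1, Lcn2 and Ltf in vehicle (n = 8) and BDE-47 (n = 7) mice as log2(CPM), 1 point per mouse, with the mean ± SD of all mice of the group beside the points. Open squares are vehicle replicates 6 and 8, which hold B cell RNA, and the open triangle is BDE-47 replicate 6, which holds muscle RNA. These 3 mice have the lowest Lcn2 and Ltf of the 15, and vehicle replicates 6 and 8 are the 2 points of high Glycam1.

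Lcn2 was above the floor in every mouse and ranked 65 to 1057 by level among the genes of a mouse in 12 of them. In vehicle mice it was 8.44, 8.87, 6.58, 7.12, 6.49, 1.74, 7.85 and 4.42 log2(CPM) in replicates 1 to 8. In BDE-47 mice it was 8.16, 7.52, 8.13, 8.28, 8.39, 5.79 and 7.60 in replicates 1 to 7. The lowest 3 values were those of vehicle replicates 6 and 8 and BDE-47 replicate 6, the mice with the lowest luminal means. The mean (± SD) was 6.44 ± 2.35 over the 8 vehicle mice and 7.70 ± 0.90 over the 7 that received BDE-47, and the ranges overlapped. Lcn2 was the only one of the 9 genes with a mean more than 2-fold higher with BDE-47, at a difference of 1.26 (standard error 0.645, limma adjusted p = 0.982), which did not exceed the spread between mice (p = 0.22 in the exact permutation test). Without vehicle replicates 6 and 8 the difference was 0.14 (exact permutation test, p = 0.79), and without BDE-47 replicate 6 as well it was 0.46 (exact permutation test, p = 0.299). Taken relative to the luminal mean of the same mouse it was 0.24 (exact permutation test, p = 0.571). Lcn2 lies on chromosome 2 from 32384637 to 32387739. Its neighbours 1110008P14Rik and Ptges2 were above the floor in 15 and 11 mice.

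Ltf was also read in every mouse, over a range from 3.93 to 385 CPM. In vehicle mice it was 7.72, 7.55, 8.04, 7.96, 6.70, 1.97, 7.16 and 2.57 log2(CPM) in replicates 1 to 8. In BDE-47 mice it was 6.77, 3.76, 8.27, 6.79, 8.59, 2.65 and 5.16 in replicates 1 to 7. Its 3 lowest values fell in the same mice as those of Lcn2. BDE-47 replicates 2 and 7 had the next lowest, 13.6 and 35.9 CPM, at luminal means of 6.34 and 6.62. The mean (± SD) was 6.21 ± 2.47 over the 8 vehicle mice and 6.00 ± 2.24 over the 7 that received BDE-47, with overlapping ranges and a difference of -0.21 (limma standard error 0.815 and adjusted p = 0.994, with p = 0.861 in the exact permutation test). Without vehicle replicates 6 and 8 the difference was -1.52 (limma standard error 0.571, unadjusted p = 0.00973 and adjusted p = 0.99, with p = 0.145 in the exact permutation test), and without BDE-47 replicate 6 as well it was -0.97 (exact permutation test, p = 0.271). Relative to the luminal mean it was -1.23 (exact permutation test, p = 0.1). Among the 12 mice that did not stand apart, the SD was 0.51 in vehicle mice and 1.84 in BDE-47 mice, and this difference in spread was not tested. The difference thus depended on the mice left out, and without BDE-47 replicate 6 alone it was 0.348 (exact permutation test, p = 0.783). Its exact p stayed above 0.05 in each of these. Ltf lies on chromosome 9 from 111019292 to 111042766, and its neighbours Rtp3 and Ccrl2 were each above the floor in 3 mice.

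**Figure D3:**
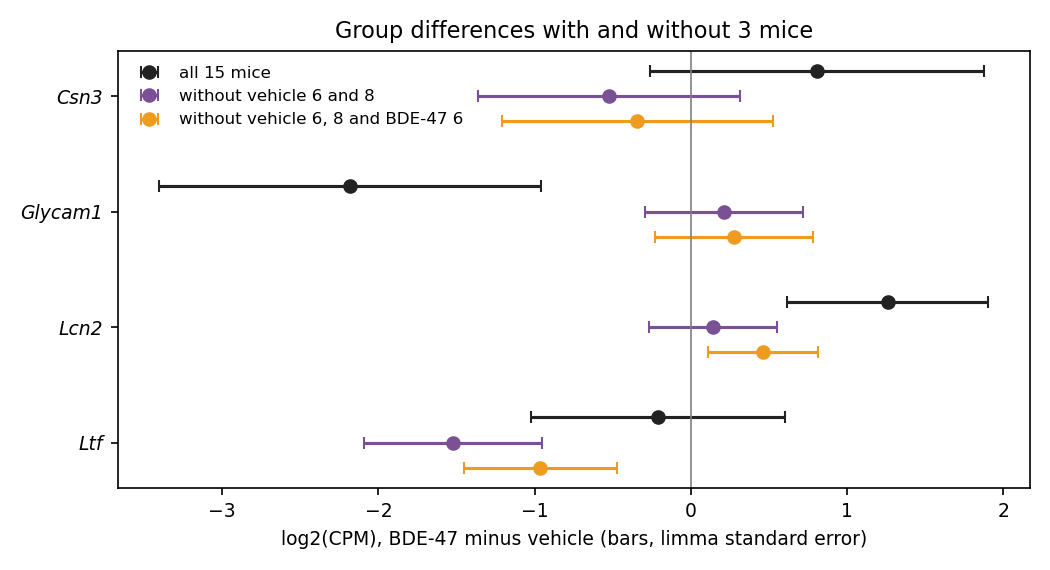
Difference in mean log2(CPM), BDE-47 minus vehicle, with the limma standard error, for all 15 mice and without 2 or 3 of them. Csn3 and Glycam1 change sign without vehicle replicates 6 and 8, the difference of Lcn2 falls from 1.26 to 0.14, and that of Ltf moves from -0.21 to -1.52.

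Lcn2 and Ltf did not keep a fixed order. QuantSeq gives reads from the 3′ end of each transcript, so levels of different genes can be set side by side without a correction for length. In vehicle mice the medians were 7.36 for Ltf, 6.85 for Lcn2 and 6.14 log2(CPM) for Csn3. In BDE-47 mice they were 8.13 for Lcn2, 6.77 for Ltf and 5.98 for Csn3, and the ranges of the 3 genes overlapped in both groups. Lcn2 exceeded Ltf in 4 of the 8 vehicle mice and in 5 of the 7 others. The difference between the 2 genes within a mouse, a measure chosen after their values were seen, was 0.23 ± 1.11 (mean ± SD, -1.46 to 1.86) with vehicle and 1.70 ± 1.53 (-0.20 to 3.76) with BDE-47. The groups differed by 1.47 (exact permutation test, two-sided, p = 0.0549), and by 1.42 without the 3 mice that stood apart (exact permutation test, p = 0.0931). The 9 genes together took 282 to 1096 CPM in vehicle mice and 74.6 to 786 CPM in BDE-47 mice, which is at most 0.11% of the mapped reads of any mouse.

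**Figure D4:**
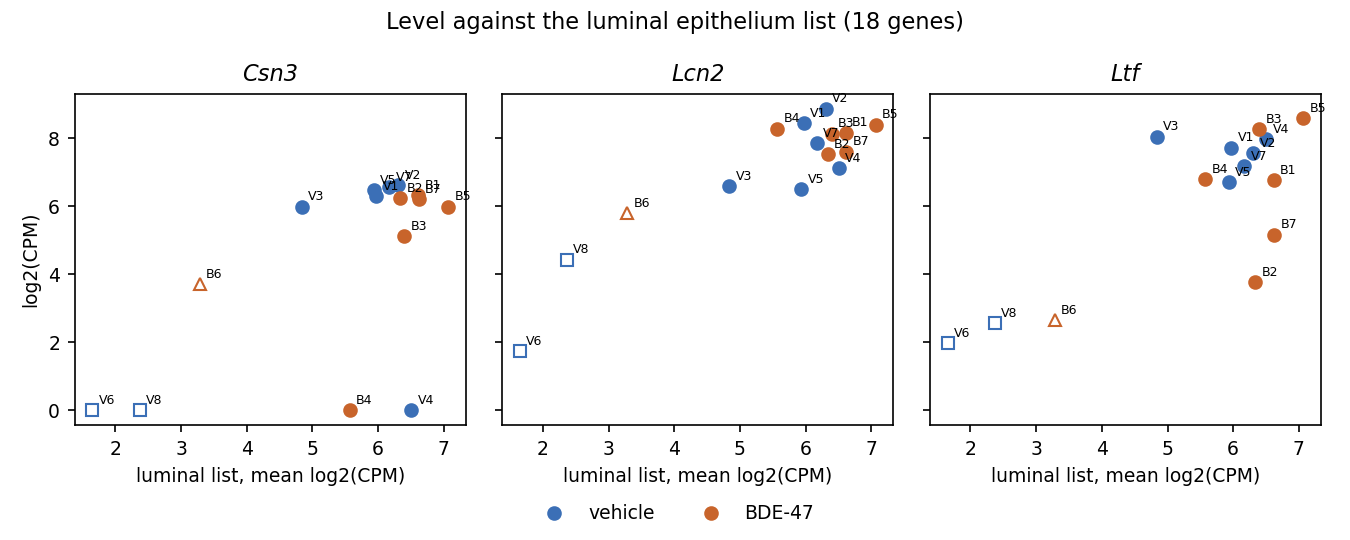
Log2(CPM) of Csn3, Lcn2 and Ltf in each mouse against the mean log2(CPM) of the 18 luminal epithelium genes in that mouse, with vehicle mice in blue and BDE-47 mice in orange (open symbols, the 3 mice that hold B cell or muscle RNA). The open symbols lie at luminal means of 1.65 to 3.29 and the other 12 at 4.84 to 7.07, and 2 of the 12, vehicle replicate 4 and BDE-47 replicate 4, have Csn3 at 0.

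Since the 3 mice lie apart in luminal level, no test of a relation over all 15 is given. In the other 12 mice Lcn2 was related to the luminal mean with Pearson's r = 0.439 (permutation p = 0.154) and Spearman's rho = 0.196 (permutation p = 0.543), and without the 2 mice farthest from the median r was 0.286. Within these mice r was 0.488 in the 6 vehicle mice and 0.003 in the 6 BDE-47 mice. For Ltf r was -0.082 (permutation p = 0.788) and rho 0.0559 (permutation p = 0.869), -0.258 in vehicle and 0.233 in BDE-47 mice, and without the 2 farthest mice r was 0.143. Neither relation was detectable in these mice. The genes most like Lcn2 over all 15 mice were Podxl (Pearson's r = 0.925), Pmepa1 (0.923) and Fxyd3 (0.923). Those most like Ltf were Chid1 (0.935), C1galt1 (0.934) and Nmt2 (0.922). These likenesses are descriptions, and the mice with low luminal RNA enter them.

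Both genes are also neutrophil genes, and the neutrophil list without them summed to 26.5 to 1504 CPM in vehicle mice and 13.0 to 500 CPM in BDE-47 mice. Of its 13 genes 1 to 11 were above the floor in vehicle mice and 1 to 4 in BDE-47 mice. Lyz2, which macrophages express as well, made 1318 of the 1504 CPM in vehicle replicate 8, all 26.5 CPM in vehicle replicate 7 and 9.74 of the 13.0 CPM in BDE-47 replicate 1. Vehicle replicate 1 was the only mouse with Ngp, Camp, Mpo, Elane and Ly6g, genes of neutrophil granules and surface, above the floor (Ngp at 5.68 log2(CPM)), and its Lcn2 and Ltf were 8.44 and 7.72. BDE-47 replicate 5, with the highest Ltf of all mice (8.59), had 1 gene of the list above the floor. In the 12 mice, r between Lcn2 and the mean of the list was 0.498 (permutation p = 0.0941) with rho 0.413 (permutation p = 0.184), 0.68 in vehicle and 0.383 in BDE-47 mice, and 0.46 without the 2 farthest mice. For Ltf r was 0.194 (permutation p = 0.547) and rho 0.245 (permutation p = 0.443), 0.183 and 0.163 in the groups, and 0.224 without the 2 farthest. The acute phase list gave r = 0.0498 for Lcn2 (permutation p = 0.875; rho 0.0769, permutation p = 0.816; groups 0.269 and -0.0404; 0.34 without the 2 farthest). It gave r = 0.295 for Ltf (permutation p = 0.364; rho 0.28, permutation p = 0.381; groups 0.697 and 0.136; 0.607 without the 2 farthest). After Benjamini-Hochberg adjustment over the 6 relations, the lowest p was 0.462 for r and 0.815 for rho.

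The regulators of milk gene transcription were read in most mice. Prlr, the prolactin receptor, was at 8.10 ± 2.32 log2(CPM) with vehicle (mean ± SD) and at 8.58 ± 2.06 with BDE-47, with a difference of 0.49 (standard error 0.708, limma adjusted p = 0.994). Nfib and Gata3, transcription factors of mammary epithelium, had differences of 0.79 and 0.71, and Cebpb 0.11. Stat5a and Stat5b, the effectors of the receptor, were above the floor in 14 mice each, and Elf5, the alveolar transcription factor, in 11. Of the 18 prolactin and alveolar regulators all were above the floor in at least 1 mouse, 8 had means more than 2-fold higher with BDE-47 and 1 more than 2-fold lower, and 0 of the 17 tested passed limma. The median difference of those 17 was 0.78. It was 0.14 without vehicle replicates 6 and 8, and 3 of the 18 had means more than 2-fold higher. Without BDE-47 replicate 6 as well it was 0.45, and 5 of the 18 were more than 2-fold higher. Wnt4, a ligand in progesterone-driven side branching, had the smallest p of the list, with means of 3.34 ± 2.58 and 5.57 ± 1.00 (difference 2.23, standard error 0.878, limma unadjusted p = 0.0149, adjusted p = 0.982, and p = 0.0564 in the exact permutation test). Wnt4 was listed at 0 in vehicle replicates 6 and 8. Nr3c1, the glucocorticoid receptor gene, had 5.75 ± 0.85 and 4.41 ± 1.73 (difference -1.35, limma unadjusted p = 0.0493, adjusted p = 0.982), with the lowest values, 1.67 and 2.12, in BDE-47 replicates 2 and 4.

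Genes that make and secrete the other parts of milk were compared as well. Of 30 secretion genes, 26 were above the floor in at least 1 mouse, and Csn1s2b, Atp2b2, Olah and Lao1 were not. Of the 26, 3 had means more than 2-fold higher and 1 more than 2-fold lower, and the median difference of the 17 tested was 0.10. That median was -0.69 without vehicle replicates 6 and 8, with 3 genes higher and 3 lower, and without BDE-47 replicate 6 as well it was -0.51, so its direction rested on those mice. The milk fat genes Xdh, Btn1a1 and Plin2 had differences of -0.62, -1.74 and 0.10, and B4galt1 0.01, all with a limma adjusted p of 0.982 or more. The most abundant genes of the list were Mfge8, of milk fat globules (9.08 ± 0.65 in vehicle and 8.56 ± 1.06 in BDE-47 mice), Thrsp (8.66 ± 2.25 and 9.08 ± 1.28), Cd36 (8.31 ± 1.70 and 8.20 ± 0.97) and Trf (7.94 ± 1.44 and 7.59 ± 0.70), of which Thrsp and Cd36 are also fat cell genes.

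Wfdc18, which encodes a small protein with the whey acidic protein fold, had the smallest limma p of the 17 secretion genes tested. In vehicle mice it was 7.94, 7.37, 6.92, 6.56, 6.16, 2.60, 8.04 and 3.68 log2(CPM) in replicates 1 to 8. In BDE-47 mice it was 7.64, 9.61, 9.56, 9.45, 8.93, 4.73 and 8.47 in replicates 1 to 7. Apart from BDE-47 replicates 1 and 6, each BDE-47 mouse lay above every vehicle mouse. The difference was 2.18 (standard error 0.653, limma unadjusted p = 0.00179, adjusted p = 0.982, and p = 0.0451 in the exact permutation test). As with Lcn2, the lowest values were in vehicle replicates 6 and 8 and BDE-47 replicate 6. Without these 3 mice the difference was 1.78 (standard error 0.341) with a limma adjusted p of 0.0312, 1 of 2 genes that passed among 9511. The other was Chchd2, which is not a milk gene and had a difference of -1.48 (standard error 0.304, limma adjusted p = 0.0494). Both are named after their values were seen, and so was the choice to leave out BDE-47 replicate 6. Atp2c2, a calcium pump gene of mammary secretory cells that limma did not test, was above the floor in 1 of the 8 vehicle mice and 4 of the 7 BDE-47 mice. Its difference was 1.77 (exact permutation test, p = 0.0256, not adjusted for the 30 genes), and it too was chosen after its values were seen.

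The marker lists of the cell types that share these genes had 0 genes past limma's adjusted threshold in each. The luminal list had 12 of 18 genes with means more than 2-fold higher with BDE-47 and a median difference of 1.11. Without vehicle replicates 6 and 8 these were 1 of 18 and -0.12. Without BDE-47 replicate 6 as well they were 1 of 18 and 0.58, so the median depended on the mice left out. In all 15 mice, the luminal genes with an unadjusted limma p under 0.05 were Cldn4 (difference 1.79), Cited1 (1.86) and Tspan8 (2.37). Of 10 basal and myoepithelial genes, among them Acta2 and Krt14, 3 were more than 2-fold higher and 3 lower. Without vehicle replicates 6 and 8 these were 0 and 5, and without BDE-47 replicate 6 as well 1 and 3. Among the 11 genes of venules and lymph node stroma above the floor, 5 were more than 2-fold lower, and Chst2 (-2.51) and Lyve1 (-2.82) had an unadjusted limma p under 0.05. Without vehicle replicates 6 and 8, 3 of the 8 still above the floor were more than 2-fold lower, and 0 of the 4 tested had such a p. Without BDE-47 replicate 6 as well, 3 of 8 were lower and 1 higher. In the B cell list 9 of 10 genes were more than 2-fold lower, and 0 without vehicle replicates 6 and 8. In the neutrophil list 5 of 12 were lower, and 1 without these mice. The acute phase list had 0 of 9 past 2-fold in either direction (2 lower without these mice), and its genes with an unadjusted limma p under 0.05 were C3 (-0.83) and Cp (-0.91). Of 13 iron handling genes, with Fth1 (9.74 ± 0.35 in vehicle and 9.59 ± 0.43 in BDE-47 mice) the most abundant, 0 were higher and 3 lower. In the adipocyte list 1 of 10 was higher and 0 lower, with a median difference of 0.43. Without vehicle replicates 6 and 8, 0 were higher and 2 lower, and the median was -0.81. In that setting 7 of the 10 had an unadjusted limma p under 0.05, all lower with BDE-47. Of all 9511 genes, 272 were lower and 157 higher at that p. Without BDE-47 replicate 6 as well, 6 of the 10 passed it, all lower, 0 were past 2-fold and the median was -0.68. In the keratinocyte list 0 of 7 were past 2-fold, and in the muscle list 6 of 6 were higher, and 0 of 6 without the 3 mice.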

How the data were processed

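RNA of the left 4th mammary gland of 15 mice was sequenced, and groups were taken from the treatment label. The authors mapped QuantSeq 3′ FWD reads with STAR 2.5.3a (build GRCm38, both per the submitters' processing notes) and scaled them to CPM. The files the authors deposited give log2(CPM), with 0 for genes under 1 CPM, as the values themselves show. The comparison had been planned on log2(CPM), or on log2(CPM + 1) for linear CPM, and the log2 values were used as given. Each file has 52636 entries, and where names were repeated the entry with the highest mean was kept (110 left out). Depth was recovered from the spacing of values under 100 CPM, which were whole reads (within 0.1) in 100% of cases.

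The 9511 genes above the floor in at least 7 mice were tested with limma 3.58.1 (trend in the prior variance, Benjamini-Hochberg adjustment, threshold 0.05) in R 4.3.3. Single genes were tested with the exact permutation test, two-sided, over 6435 regroupings (smallest p 0.000155), unadjusted. Relations used 100000 resamples, or all of them for 6 mice. The limma and permutation steps were tested on simulated, normally distributed values. Those values lack the floor and the split levels of genes such as Csn3 and Glycam1, so that check does not cover such genes. The xenograft covariate of the study is not in the labels and was not used. Member genes and gene lists were chosen with earlier results of these data known. Named from each list were genes with an unadjusted limma p under 0.05, otherwise up to 4 with the highest mean level, and the 3 genes most alike to each member above the floor in at least 7 mice (1 of these is not reported here). Genes named besides these (such as Fut7, Chst4, Cxcl13, Ngp and the milk fat genes) were chosen after their values were seen. Python 3.11.15, scipy 1.17.1 and pandas 2.3.3 were used. Alternatives were pseudocounts of 1 and 0.1, no filter or a mean of at least 10 CPM, size factors, no variance trend, the replicate block, and mice left out.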

Additional observations from a re-analysis of the deposited data

Results flagged for a closer look

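Dixon's test was run on 27 sets of 7 or 8 values, from the 6 genes above the floor and from list means, by group. These sets do not cover every list. In 8 the highest or lowest mouse lay further from the rest than the 95% limit. That limit flags about 1 in 20 sets of normally distributed values. Sets with many values at 0, such as those of Csn1s1, are not of that kind, so the 8 cannot be set against that rate. Csn1s1 was high in vehicle replicate 2 (4.08 log2(CPM)) and in BDE-47 replicate 2 (4.41), with most other mice listed at 0. Csn3 was low in BDE-47 replicate 4, where it was listed at 0. Glycam1 was highest among BDE-47 mice in replicate 3, at 1.33 log2(CPM). BDE-47 replicate 6 had the lowest Lcn2 of its group (5.79) and the lowest mean of the luminal list (3.29), and the highest mean of the skeletal muscle list (13.6). BDE-47 replicate 4 had the highest mean of the neutrophil list in its group (2.10), and its Lcn2 and Ltf were 8.28 and 6.79. In this mouse Csn3 was at 0 while the luminal list was at 5.57.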

How the results depend on the processing

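No member passed limma's adjusted threshold under any alternative, and the count of genes passing was 0 in each except without vehicle replicates 6 and 8 and BDE-47 replicate 6, where it was 2. Lcn2 stayed higher with BDE-47 under every alternative run. Lalba stayed lower, but no alternative could have changed this, since it was listed at 0 in all BDE-47 mice. Without vehicle replicates 6 and 8, Csn3 became -0.525 and Glycam1 0.213, and without BDE-47 replicate 6 as well they were -0.343 and 0.277. On the log2 ratio of mean CPM, Csn1s1 was 0.236, Csn3 -0.12 and Glycam1 -7.67. Relative to the luminal list Csn3 was -0.21. With each mouse left out in turn, Csn1s1 ran from -0.749 (without BDE-47 replicate 2) to 0.357 (without vehicle replicate 2), Csn3 from 0.235 to 1.605, Lalba from -0.789 to -0.3, Glycam1 from -2.549 to -1.112, Lcn2 from 0.587 (without vehicle replicate 6) to 1.605, and Ltf from -0.815 (without vehicle replicate 6) to 0.348 (without BDE-47 replicate 6), with 0 genes called in each. Csn1s1 and Lalba have no value without the variance trend or at a mean of at least 10 CPM, where limma did not test them, and Lalba has no ratio, since all BDE-47 mice are at 0. The alternatives without 3 mice, relative to the luminal list and in 12 mice were chosen after seeing the data. Values listed at 0 limit what the low genes can show, since up to 19.58 reads are hidden by the floor.

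The labels number the mice of both groups. Deviations of same-numbered mice from their group means were little correlated over genes (-0.018 to 0.053). B cell and muscle RNA of single mice enter these deviations, so they cannot decide whether the numbers pair mice. With the replicate block, 0 genes passed (lowest limma adjusted p 0.993), and the differences were 0.97 for Lcn2, 0.235 for Csn3, -0.73 for Ltf, -1.112 for Glycam1, -0.226 for Csn1s1 and -0.789 for Lalba.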
